A study of Homo sapiens with 16 samples.

Results

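Homologous recombination copies an intact sister chromatid to mend a broken DNA molecule, and the Fanconi anaemia proteins unhook DNA strands that have been crosslinked to each other. The expression of 32 genes of these pathways and of the checkpoint kinases that watch over them was examined after SLIRP knockdown and androgen treatment of LNCaP cells. The genes were chosen by name for their function, with earlier results of these data known. All 32 were found among the 20502 genes with a symbol in the deposited count table. LNCaP is a human line of prostate cancer cells that respond to androgen. SLIRP is an RNA-binding protein studied here as a repressor of the androgen receptor.

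RNA sequencing had been performed on 16 libraries in 4 groups of 4. SLIRP was targeted with a siRNA pool, the control being a nonsense siRNA (NS), and the transfected cells then received ethanol vehicle (Veh) or 1 nM dihydrotestosterone (DHT) without serum, the androgen that activates the androgen receptor. The vehicle groups are NS-Veh and SLIRP-Veh, the androgen groups are NS-1nM DHT and SLIRP-1nM DHT, and no library was untransfected. All libraries come from a single cell line and a single siRNA pool, so an effect of SLIRP loss and any other effect of the pool cannot be told apart.

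The libraries held between 436220 and 1689123 estimated counts, and the least deep were replicates 2 and 1 of NS-Veh, with 436220 and 512762. Levels are given as CPM, the counts scaled to a common library size. The SLIRP gene itself, listed under its older symbol C14orf156, lay between 45.1 and 63.4 CPM in the 8 NS libraries and between 1.41 and 8.05 CPM in the 8 SLIRP siRNA libraries, with no overlap. KLK3, the androgen-induced gene of prostate-specific antigen, lay at 25.5 to 52.2 CPM in NS-Veh and 91.8 to 99.7 CPM in SLIRP-Veh, and with androgen at 247 to 327 CPM in NS-1nM DHT and 332 to 401 CPM in SLIRP-1nM DHT. All 9 luminal prostate markers examined were detected, with a summed level of 4062 to 4690 CPM in NS libraries and 2974 to 3627 CPM in SLIRP siRNA libraries. KRT5, TP63, DCN, PECAM1, CDH5, PTPRC and CD3E, which mark basal, stromal, endothelial and blood cells, had 0 counts in every library. Other markers of these cells were detected. Stromal COL1A1 had 4 to 25 counts in a library, stromal COL1A2 and basal KRT14 at most 2, and CD68 of leukocytes at most 6. The summed markers of basal cells reached at most 1.54 CPM, those of leukocytes 7.83 CPM and those of stroma 24.0 CPM.

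In homologous recombination, the broken end is first trimmed back by nucleases, which leaves a single-stranded tail. BRCA1, PALB2 and BRCA2 then prepare that tail to invade the intact sister molecule, which is copied. The pathway works mainly in S and G2 phase, when a sister chromatid exists, and many of its genes are known to be transcribed in late G1 and S phase under E2F factors. The kinases ATM and ATR sense broken ends and single-stranded DNA, and pass the signal on through CHEK2 and CHEK1.

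Most of these genes were higher after SLIRP knockdown. When the 8 SLIRP siRNA libraries were compared with the 8 NS libraries, 29 of the 32 genes had enough counts to be tested, 18 were higher and 1 was lower at a false discovery rate (FDR) of 0.01. Across all 10160 genes tested, 17.8% were higher and 17.4% were lower, against 62.1% of the tested repair genes that were higher. The median log2 fold change of the repair genes was 0.93, and that of all tested genes was -0.01. The 18 genes that rose were BRCA1, BRCA2, BRIP1, PALB2, RAD51AP1, RAD51C, RAD54L, RAD54B, XRCC2, RBBP8, EXO1, BLM, FANCA, FANCG, FANCD2, FANCI, CHEK1 and TOPBP1. NBN fell. The 10 genes that did not pass were BARD1, XRCC3, MRE11A, RAD50, FANCC, FANCF, FANCM, ATM, ATR and CHEK2, and FANCB, FANCE and FANCL were not tested in this comparison because of low counts. In bulk RNA, a change in the share of cells in a given state and a change in RNA per cell cannot be told apart.

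The genes of the cell cycle rose in the same libraries. Of the 92 S and G2/M phase genes of the Seurat list that are not among the repair genes, 84 were higher and 1 was lower, with a median log2 fold change of 1.23. The repair genes RAD51AP1, EXO1, BLM and BRIP1 are also on that list, and all 4 rose. Of the 25 tested repair genes outside it, 14 were higher and 1 was lower, with a median of 0.68. The part of the cell cycle genes in the rise of the repair genes was not tested.

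**Figure D1:**
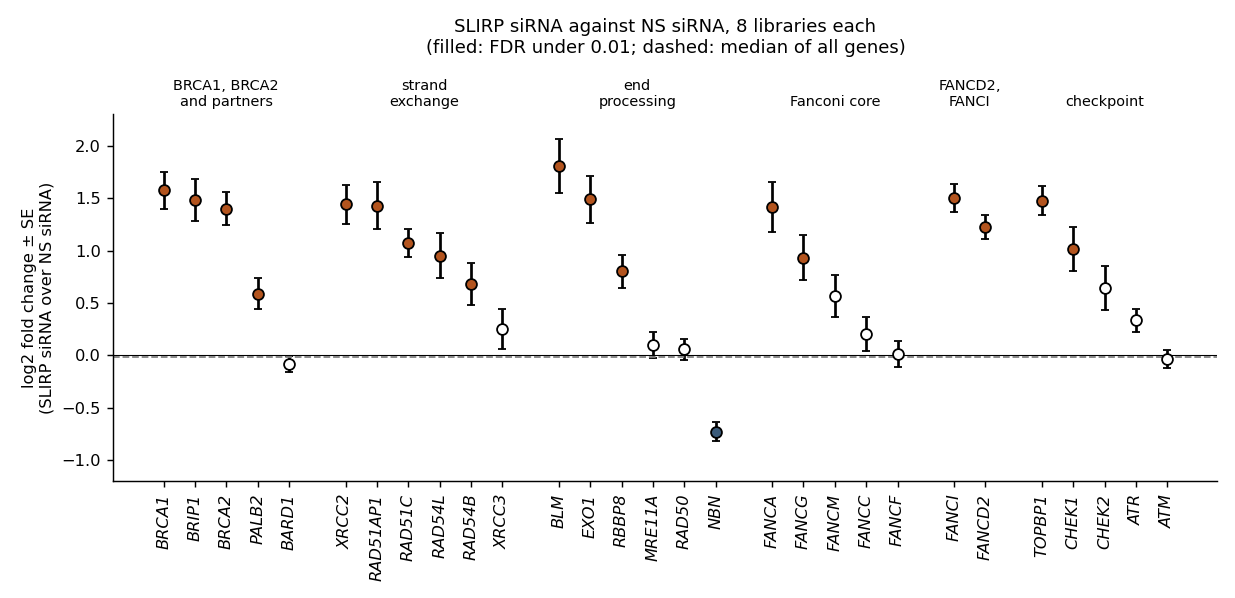
Log2 fold change of SLIRP siRNA against NS libraries (vertical axis, points, with bars of 1 standard error) for the 29 tested repair genes, grouped by role. Filled orange points are the 18 genes called higher, the filled blue point is NBN, open points are the 10 genes not called, and the dashed line marks the median of all tested genes at -0.01.

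Promoter sequences were looked at because so many of the genes moved together. RefSeq windows from 250 bases before to 50 bases after the start site (GRCh38.p14) were matched for 29 of the 32 genes. FANCI, NBN and RAD54B had no window. They were searched on both strands for the E2F words TTTCCCGC, TTTGGCGC, TTTCGCGC and TTTGCCGC, for the cell cycle homology region (CHR) words TTTGAA and TTCGAA, and for the NF-Y word CCAAT, and words were allowed to overlap. An E2F word was found in 6 of the 29 matched genes (20.7%) and in 3.33% of all 27305 promoters. It stood in 5 of the 16 matched genes that rose (31.2%) and in 1 of the 10 that were not called. These 5 were EXO1, FANCA, FANCD2, TOPBP1 and XRCC2, and the gene that was not called was FANCC, with 2 matches. A CHR word stood in 1 of the 16, in 2 of the 10 and in 16.6% of all promoters, and CCAAT in 7 of the 16, in 6 of the 10 and in 35.7% of all promoters. The BRCA1 window, counted among the 16, was taken at the outermost annotated start of the gene, so the lack of a match there says nothing of its other start sites. No test was made of these shares, and a match is a string of letters rather than a known site. All promoters were counted without matching them to the repair genes for base composition.

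The windows below show where the word lies in 4 genes that rose, in FANCC, which did not pass the test although it carries the word, and in BARD1, which was not called and has no match. Each runs 5′ to 3′ along the gene from 70 bases before the start site through the first 30 bases of the transcript, in GRCh38.p14, with the matched letters in capitals.
EXO1, chr1:241848134-241848233, plus strand: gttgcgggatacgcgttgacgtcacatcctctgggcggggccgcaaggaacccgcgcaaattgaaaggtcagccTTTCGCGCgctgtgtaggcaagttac
FANCD2, chr3:10026367-10026466, plus strand: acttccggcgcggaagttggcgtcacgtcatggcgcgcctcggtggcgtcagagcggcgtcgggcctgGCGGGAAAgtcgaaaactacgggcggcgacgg
TOPBP1, chr3:133661912-133662011, minus strand: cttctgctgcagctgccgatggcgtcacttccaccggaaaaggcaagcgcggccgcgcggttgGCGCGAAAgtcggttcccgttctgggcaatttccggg
XRCC2, chr7:152676112-152676211, minus strand: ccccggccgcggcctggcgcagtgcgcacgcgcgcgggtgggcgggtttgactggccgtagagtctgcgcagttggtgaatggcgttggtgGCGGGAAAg
FANCC, chr9:95317680-95317779, minus strand: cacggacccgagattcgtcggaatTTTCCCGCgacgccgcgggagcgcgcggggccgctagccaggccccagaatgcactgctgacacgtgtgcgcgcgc
BARD1, chr2:214809654-214809753, minus strand: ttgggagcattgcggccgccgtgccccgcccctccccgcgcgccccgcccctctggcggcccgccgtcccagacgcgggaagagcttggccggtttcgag
The match began at base 5 of the EXO1 transcript and at base 22 of the XRCC2 transcript, 2 bases before the start site in FANCD2, 7 bases before it in TOPBP1, and 46 bases before it in FANCC. The second match of FANCC, 172 bases before the start site, lies outside the stretch shown, as does the match of FANCA at the same distance.

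BRCA1 and its partners were examined first. BRCA1 is a tumour suppressor that starts end trimming and brings in PALB2 and BRCA2. Its gene lies at chr17:41196312-41322262 on the minus strand (hg19). BRCA1 measured 22.0, 13.9, 29.7 and 20.9 CPM in replicates 1 to 4 of NS-Veh and 38.8, 47.8, 61.0 and 60.7 CPM in NS-1nM DHT. In SLIRP-Veh it measured 114, 100.2, 102 and 80.7 CPM, and in SLIRP-1nM DHT 155, 135, 123 and 139 CPM. All 8 SLIRP siRNA libraries lay above all 8 NS libraries, and the 4 groups did not overlap with each other. The SLIRP siRNA libraries were 2.98-fold higher (log2 fold change 1.57 ± 0.176 SE, FDR = 1.15e-08). A pseudogene of BRCA1 is annotated, and reads shared with it could not be told apart here.

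BRCA2 is a tumour suppressor that acts on the single-stranded tail, and its gene lies at chr13:32889223-32974405 on the plus strand. Its level was 11.99, 16.2, 19.8 and 22.5 CPM in NS-Veh and 28.3, 31.6, 33.1 and 38.8 CPM in NS-1nM DHT. It was 65.7, 59.5, 59.3 and 55.2 CPM in SLIRP-Veh and 77.0, 90.3, 86.5 and 78.9 CPM in SLIRP-1nM DHT. As with BRCA1, every group stood clear of the others, and SLIRP siRNA libraries were 2.64-fold higher (log2 fold change 1.40 ± 0.155 SE, FDR = 9.27e-09).

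BRIP1, a helicase that binds BRCA1 and is mutated in one form of Fanconi anaemia, lies at chr17:59756500-59940920 on the minus strand. It was at 11.99, 4.64, 11.2 and 12.1 CPM in NS-Veh and at 17.8, 16.2, 20.04 and 23.4 CPM in NS-1nM DHT. With SLIRP siRNA it was at 36.1, 53.3, 37.7 and 24.6 CPM in vehicle and at 63.9, 56.4, 46.6 and 43.5 CPM with DHT. The lowest SLIRP siRNA library, at 24.6 CPM, was just above the highest NS library, at 23.4 CPM. The log2 fold change was 1.48 ± 0.198 SE (FDR = 3.05e-07). PALB2, which bridges BRCA1 and BRCA2, rose less, by 0.59 (FDR = 1.56e-03), and its 8 NS libraries at 13.9 to 30.4 CPM overlapped the 8 SLIRP siRNA libraries at 29.0 to 45.4 CPM.

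BARD1 is the obligate partner of BRCA1 in its ubiquitin ligase, and it did not pass the test. It lay between 267 and 325 CPM in NS libraries and between 237 and 365 CPM in SLIRP siRNA libraries, with a log2 fold change of -0.09 ± 0.0761 SE (FDR = 0.365). Per kilobase of transcript, BARD1 had the highest level of the 32 genes in each of the 4 groups, at 53.2 CPM per kb in NS-Veh and 47.6 CPM per kb in SLIRP-Veh. BRCA1 ranked 23rd of 32 in NS-Veh at 3.05 CPM per kb, 10th in SLIRP-Veh, and 8th in SLIRP-1nM DHT at 19.5 CPM per kb. Per kilobase, the ratio of BARD1 to BRCA1 was 11.7 to 27.0 in NS-Veh and 6.59 to 10.7 in NS-1nM DHT. It was 3.05 to 4.14 in SLIRP-Veh and 2.34 to 3.49 in SLIRP-1nM DHT, below every NS library.

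**Figure D2:**
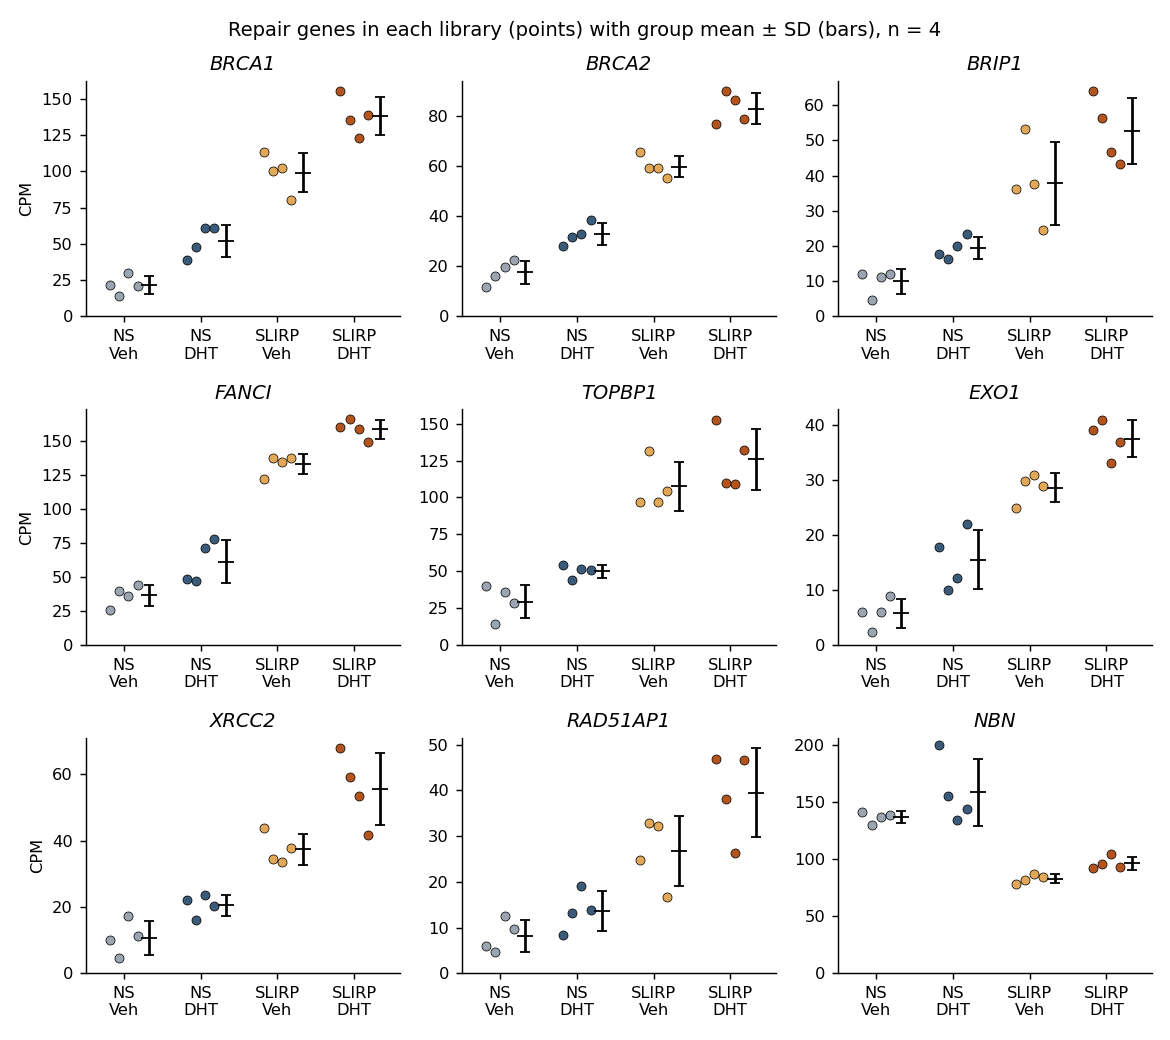
Level of 9 repair genes in each of the 16 libraries, in CPM (vertical axes, starting at 0), with a point for each library and a bar for the mean ± SD of each group of 4. In 7 of the 8 panels of genes that rose all SLIRP siRNA points lie above all NS points, the exception being RAD51AP1, and in the NBN panel they all lie below.

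Among the genes that act in strand invasion, 5 of 6 rose. XRCC2 works in a complex that promotes strand invasion, and its gene lies at chr7:152341861-152373278 on the minus strand. It was measured at 9.996, 4.64, 17.2 and 11.3 CPM in NS-Veh and at 22.0, 16.2, 23.5 and 20.5 CPM in NS-1nM DHT. The levels with SLIRP siRNA were 43.8, 34.5, 33.7 and 37.7 CPM in vehicle and 67.9, 59.2, 53.4 and 41.8 CPM with DHT. No SLIRP siRNA library overlapped an NS library (log2 fold change 1.44 ± 0.185 SE, FDR = 1.51e-07).

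RAD51AP1 stimulates strand invasion, and its gene lies at chr12:4647964-4669213 on the plus strand. In NS-Veh it was at 5.997, 4.64, 12.5 and 9.64 CPM, and in NS-1nM DHT at 8.39, 13.1, 19.2 and 13.9 CPM. It was at 24.9, 32.9, 32.3 and 16.7 CPM in SLIRP-Veh and at 47.0, 38.1, 26.2 and 46.7 CPM in SLIRP-1nM DHT. Replicate 4 of SLIRP-Veh, at 16.7 CPM, fell below replicate 3 of NS-1nM DHT, at 19.2 CPM, so the ranges overlapped. The log2 fold change was 1.43 ± 0.222 SE (FDR = 3.57e-06).

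RAD51C, which works in a complex with XRCC2, rose from 19.9 to 34.9 CPM over the NS libraries to 43.9 to 65.2 CPM over the SLIRP siRNA libraries (log2 fold change 1.07, FDR = 8.11e-08). RAD54L and RAD54B, translocases that move along double-stranded DNA, rose by 0.95 (FDR = 5.83e-04) and 0.68 (FDR = 5.99e-03). RAD54L lay between 5.997 and 21.8 CPM in NS libraries and between 19.4 and 41.8 CPM in SLIRP siRNA libraries, and RAD54B between 9.996 and 21.2 CPM and between 15.8 and 39.5 CPM, so that both overlapped. RAD54B shares exonic bases with FSBP, and RAD54L with LRRC41, and the strand setting of the counting is not given in the sources used here. The RAD54B call was lost in 7 of the 16 fits that left out 1 library, namely replicates 1 and 2 of NS-1nM DHT, 1 and 4 of NS-Veh, 1 and 2 of SLIRP-1nM DHT, and 1 of SLIRP-Veh. XRCC3, which also works with RAD51C, had a log2 fold change of 0.25 (FDR = 0.294), with 9.28 to 26.1 CPM in NS libraries and 16.9 to 37.01 CPM in SLIRP siRNA libraries, and overlaps exons of KLC1.

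The nucleases and helicases that trim the broken end did not move as one. EXO1, the exonuclease of long-range trimming, lies at chr1:242011269-242058450 on the plus strand. Its values were 5.997, 2.32, 5.94 and 8.84 CPM in NS-Veh and 17.8, 10.03, 12.2 and 22.0 CPM in NS-1nM DHT. In SLIRP-Veh they were 24.9, 29.8, 31.0 and 28.9 CPM, and in SLIRP-1nM DHT 39.1, 40.9, 33.03 and 37.01 CPM. Every SLIRP siRNA library was higher than every NS library (log2 fold change 1.49 ± 0.221 SE, FDR = 1.78e-06). BLM, the RecQ helicase lost in Bloom syndrome, had the largest log2 fold change of the 29 tested genes, 1.81 ± 0.259 SE (FDR = 9.95e-07), from a mean of 16.4 counts in a library and with 0 counts in replicate 2 of NS-Veh. BLM lay between 0 and 10.97 CPM in NS libraries, too low to be tested among them alone. It thus entered this comparison through the SLIRP siRNA libraries, where it was higher. RBBP8, the CtIP protein that starts trimming together with the MRE11 nuclease, rose by 0.80 (FDR = 8.59e-05).

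NBN was the 1 gene of the set that fell. It encodes nibrin, which joins MRE11 and RAD50 in the complex that first holds a broken end and calls in ATM, and its gene lies at chr8:90936743-91015456 on the minus strand, sharing exonic bases with OSGIN2. NBN was at 141.9, 129.9, 136.7 and 139 CPM in NS-Veh and at 200.3, 155.8, 134.2 and 144.1 CPM in NS-1nM DHT. It was at 78.8, 81.5, 87.6 and 84.2 CPM in SLIRP-Veh and at 92.6, 95.9, 105 and 93.3 CPM in SLIRP-1nM DHT. All 8 SLIRP siRNA libraries were below all 8 NS libraries, and the level with SLIRP siRNA was 0.603 of that with NS (log2 fold change -0.73 ± 0.0906 SE, FDR = 8.25e-08).

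The partners of NBN in that complex did not pass the test. RAD50 had a log2 fold change of 0.06 ± 0.0994 SE (FDR = 0.666), with 110.1 to 149.9 CPM in NS libraries and 94.1 to 165 CPM in SLIRP siRNA libraries. MRE11A, now named MRE11, had a log2 fold change of 0.10 ± 0.124 SE (FDR = 0.527). Per kilobase, the ratio of NBN to RAD50 ranged from 1.69 to 2.57 over the NS libraries and from 0.96 to 1.77 over the SLIRP siRNA libraries, which overlapped slightly. The ratio of NBN to MRE11A ranged from 3.89 to 6.10 in NS libraries and from 2.16 to 3.50 in SLIRP siRNA libraries, with no overlap. NBN ranked 2nd of the 32 genes per kilobase in both NS groups, at 29.6 and 34.3 CPM per kb, and 6th and 7th in the vehicle and DHT groups with SLIRP siRNA, at 17.96 and 20.9 CPM per kb.

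The Fanconi core complex and the pair of proteins it acts on make up 10 of the 32 genes, of which 7 were tested and 4 rose. The core complex, of which 8 genes are in the set, adds ubiquitin to the pair FANCD2 and FANCI at a crosslink. Both genes of that pair rose. FANCI lies at chr15:89787176-89860492 on the plus strand and shares exonic bases with POLG. FANCI measured 26.0, 39.4, 36.3 and 44.2 CPM in NS-Veh and 48.3, 47.1, 71.5 and 78.3 CPM in NS-1nM DHT. With SLIRP siRNA it measured 122, 138, 135 and 138 CPM in vehicle and 161, 166, 159 and 149.7 CPM with DHT. The lowest SLIRP siRNA library exceeded the highest NS library by a wide margin, and the log2 fold change was 1.503 ± 0.132 SE (FDR = 1.12e-10). FANCI ranked 9th per kilobase in NS-Veh, at 7.71 CPM per kb, and 2nd after BARD1 in both SLIRP siRNA groups, at 28.1 and 33.6 CPM per kb.

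FANCD2 rose alongside its partner, from 22.0 to 61.0 CPM over the NS libraries to 99.1 to 123 CPM over the SLIRP siRNA libraries (log2 fold change 1.22 ± 0.114 SE, FDR = 4.1e-10). The ratio of FANCI to FANCD2 per kilobase overlapped between all groups, at 0.88 to 1.75 over the NS libraries and 1.28 to 1.66 over the SLIRP siRNA libraries. Of the core complex, FANCA rose by 1.41 (FDR = 1.08e-05) and FANCG by 0.93 (FDR = 5.68e-04). FANCC (log2 fold change 0.20, FDR = 0.322), FANCF (0.01, FDR = 0.951) and FANCM, the translocase that anchors the complex (0.57, FDR = 0.0216), did not pass. FANCB, FANCE and FANCL, the ubiquitin ligase of the complex, were too low for this test and lay between 0 and 21.2 CPM in all libraries. FANCA shares exonic bases with ZNF276.

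Of the checkpoint genes, TOPBP1 and CHEK1 rose. TOPBP1, the activator of ATR, lies at chr3:133317019-133381224 on the minus strand. Its level was 39.98, 13.9, 35.7 and 28.1 CPM in NS-Veh and 54.5, 43.97, 51.4 and 50.5 CPM in NS-1nM DHT. The SLIRP siRNA libraries held 97.1, 132, 97.0 and 104 CPM in vehicle and 153, 110.0, 109 and 132 CPM with DHT. These 8 libraries stood well above the 8 NS libraries (log2 fold change 1.48 ± 0.139 SE, FDR = 4.24e-10). CHEK1, the kinase downstream of ATR, rose by 1.01 (FDR = 2.01e-04) and had 0 counts in replicate 2 of NS-Veh. ATM had a log2 fold change of -0.04 (FDR = 0.873), ATR of 0.33 (FDR = 0.0112) and CHEK2 of 0.64 (FDR = 0.0135), and none of the 3 passed. CHEK2 has 7 annotated pseudogenes, with which its short reads may be shared.

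The ranges of NS and SLIRP siRNA libraries did not overlap for 10 of the 29 tested genes, against 15.2% of all tested genes. They were BRCA1, BRCA2, BRIP1, RAD51C, XRCC2, EXO1, FANCD2, FANCI and TOPBP1, all higher, and NBN, lower. Since vehicle and DHT libraries were pooled in this comparison, as in the study, the response to DHT forms part of the spread within each arm, and the knockdown was next compared within each treatment.

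In vehicle, all 32 genes could be tested and 19 were higher and 1 lower in SLIRP-Veh than in NS-Veh, against 11.8% higher and 9.84% lower among all 10677 genes. Their median log2 fold change was 1.12, and that of all genes was -0.01. EXO1 rose by 2.10 ± 0.301 SE (FDR = 7.63e-07), BRCA1 by 2.08 ± 0.181 SE (FDR = 1.6e-11) and FANCI by 1.80 ± 0.155 SE (FDR = 1.12e-11). BLM rose by 2.26 ± 0.383 SE (FDR = 1.24e-05). FANCB, with 0 counts in replicates 1 and 2 of NS-Veh, passed with 1.83 ± 0.549 SE (FDR = 9.12e-03), a call that was lost in 10 of the 16 fits without 1 library. FANCB lay between 0 and 8.39 CPM in NS libraries, too low to be tested among them alone, so it entered through the SLIRP siRNA libraries. NBN fell by 0.73 on the log2 scale (SE 0.122, FDR = 9.3e-06). The 92 cell cycle genes counted 76 higher and 1 lower here, with a median of 1.38. Without replicates 1 and 2 of NS-Veh, the 2 libraries of lowest depth, 14 repair genes were higher and 1 was lower. The median of the repair genes was then 1.07, and 946 of all 11008 genes were higher and 781 lower. The calls of PALB2, RBBP8, FANCA, FANCB and CHEK2 were lost.

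Under DHT, 15 of the 32 genes were higher and 1 was lower in SLIRP-1nM DHT than in NS-1nM DHT, against 12.8% higher and 11.6% lower among all 10677 genes. The median log2 fold change of the 32 genes was 0.62, and that of all genes was -0.02. BRCA1 rose by 1.39 ± 0.141 SE (FDR = 5.89e-10) and FANCI by 1.35 ± 0.131 SE (FDR = 1.82e-10). NBN fell by 0.70 on the log2 scale (SE 0.113, FDR = 5.49e-06). Of the 92 cell cycle genes, 79 were higher and 0 lower, with a median of 1.14.

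The 15 genes that rose under DHT had all risen in vehicle as well. PALB2, RAD54L, FANCB and CHEK2 passed in vehicle alone. In vehicle RAD54L was at 1.69 (FDR = 1.49e-05) and CHEK2 at 1.10 (FDR = 5.31e-03), and under DHT at 0.61 (FDR = 0.0338) and 0.34 (FDR = 0.348), but the difference between the treatments was not called for any of the 4 genes. Both comparisons use separate libraries.

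**Figure D3:**
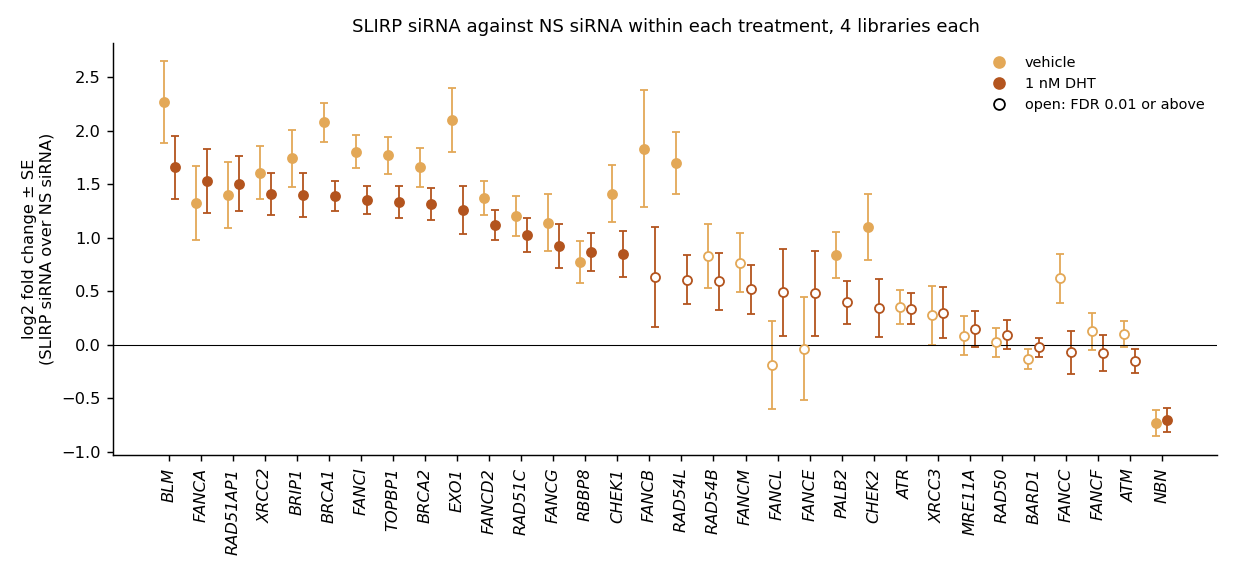
Log2 fold change of SLIRP siRNA against NS (vertical axis) for each of the 32 repair genes (horizontal axis), in vehicle and under 1 nM DHT. The points for vehicle and DHT stand side by side, with bars of the standard error. Most genes are positive in both treatments. NBN lies at -0.73 in vehicle and -0.70 under DHT, and BRCA1 at 2.08 and 1.39.

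The response to DHT was examined next. In NS cells, 29 of the 32 genes were tested and BRCA1 was the 1 gene called, higher in NS-1nM DHT than in NS-Veh, with 0.849% of all 10360 genes called higher and 0.463% lower. BRCA1 was 2.22-fold higher with DHT (log2 fold change 1.15 ± 0.200 SE, FDR = 5.08e-04), its 4 NS-1nM DHT libraries at 38.8 to 61.0 CPM lying above the 4 NS-Veh libraries at 13.9 to 29.7 CPM. This call was lost without the 2 libraries of lowest depth (log2 fold change 1.03, FDR = 0.0125) and within replicates 1 and 2 alone (1.25, FDR = 0.0753), and it held within replicates 3 and 4 (1.23, FDR = 1.28e-03). Other settings called more of the genes, 4 with no filter on low counts and 5 at an FDR of 0.05. In the main test, RAD54L had a log2 fold change of 1.26 ± 0.292 SE (FDR = 0.0108) and EXO1 of 1.24 ± 0.357 SE (FDR = 0.0525). BRCA2 was at 0.79 (FDR = 0.0344), FANCI at 0.70 (FDR = 0.0288) and TOPBP1 at 0.68 (FDR = 0.0388), and none of these passed.

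Of the 29 genes, 27 had a positive log2 fold change with DHT in NS cells, and their median was 0.44, against 0.00 for all genes. Without adjustment, 15 of the 29 genes and 1479 of all 10360 genes had p below 0.05. NS-1nM DHT and NS-Veh did not overlap for 9 of the 29 genes, against 8.74% of all genes. NBN was at 0.19 and BARD1 at 0.13, both not called. The 85 tested cell cycle genes counted 10 higher and 0 lower, with a median of 0.44.

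In SLIRP knockdown cells, 0 of the 32 genes were called between SLIRP-1nM DHT and SLIRP-Veh by edgeR's quasi-likelihood test, where 0.637% of all genes were higher and 0.534% were lower. Without adjustment, 9 of the 32 genes had p below 0.05, and DESeq2 also called 0 genes, with 8 below 0.05. FANCG, with a log2 fold change of 0.74 ± 0.204 SE (FDR = 0.0373), and BRCA1, with 0.46 ± 0.131 SE (FDR = 0.0421), came nearest. The median was 0.26, 26 of the 32 values were positive, and the groups did not overlap for 7 of the 32 genes, against 8.35% of all genes. Of the 92 cell cycle genes, 4 were higher and 0 lower, with a median of 0.29.

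**Figure D4:**
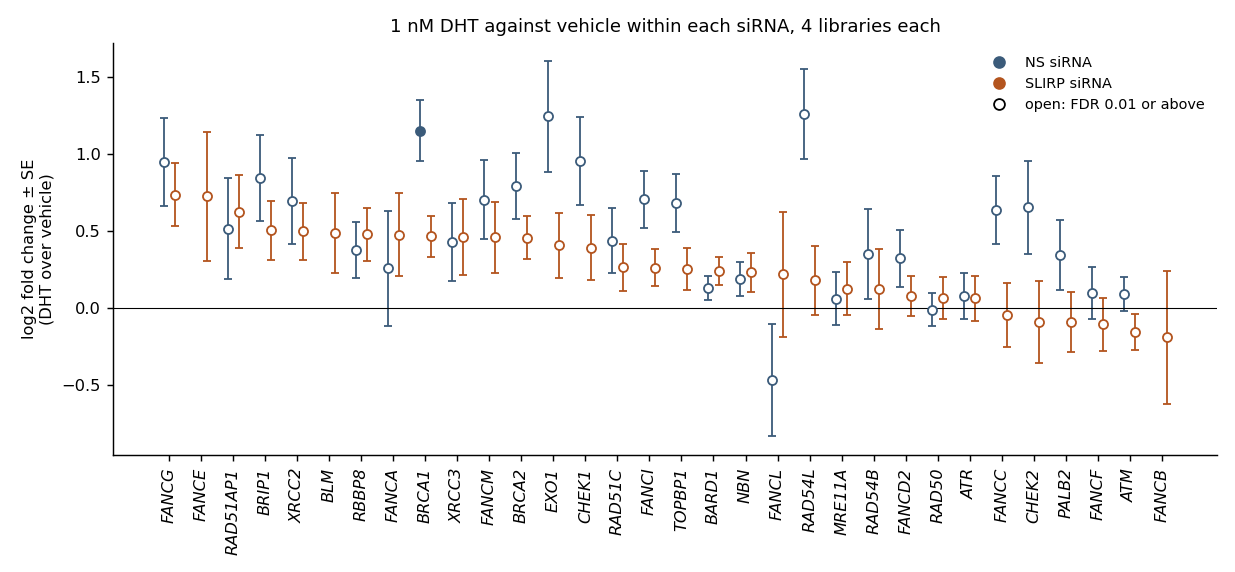
Log2 fold change of 1 nM DHT against vehicle (vertical axis) for each repair gene (horizontal axis). For each gene the point for NS cells stands beside that for SLIRP knockdown cells, with 29 and 32 genes tested. Open points have an FDR of 0.01 or more, so that BRCA1 in NS cells, at 1.15, is the single filled point.

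Whether the response to DHT differed between the siRNAs was tested with an interaction term. Among all 10677 genes edgeR called 0% in either direction, with 388 genes at an unadjusted p below 0.05, and DESeq2 called 0 genes. All 32 repair genes had an FDR of 1. The DHT response of BRCA1 was lower by 0.69 ± 0.239 SE with SLIRP siRNA on the log2 scale and that of RAD54L by 1.09 ± 0.376 SE, and 5 of the 32 genes had an unadjusted p below 0.05. The difference was positive for 10 of the 32 genes and for 4930 of the 10677 genes, with medians of -0.24 and -0.02.

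The overall level of the set was summarised in each library as a score, the mean over the 32 genes of the log2 CPM relative to the mean of all libraries. With vehicle it was -0.70 ± 0.256 (SD, n = 4) in NS-Veh and 0.29 ± 0.0684 in SLIRP-Veh, and with androgen -0.14 ± 0.131 in NS-1nM DHT and 0.55 ± 0.0931 in SLIRP-1nM DHT. The 4 groups did not overlap in this score, which is given as a description since it rests on genes already tested. The summed level of the 32 genes was 1090 to 1287 CPM in NS-Veh and 1761 to 1869 CPM in SLIRP-Veh, against 1492 to 1590 CPM in NS-1nM DHT and 2059 to 2320 CPM in SLIRP-1nM DHT. The score of the 92 cell cycle genes stood in the same order, with ranges of -1.29 to -0.65 for NS-Veh, -0.57 to -0.10 for NS-1nM DHT, 0.44 to 0.53 for SLIRP-Veh and 0.73 to 0.85 for SLIRP-1nM DHT. In both NS groups replicates 1 and 2 had lower cell cycle scores than replicates 3 and 4, and in both SLIRP siRNA groups they had higher ones.

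**Figure D5:**
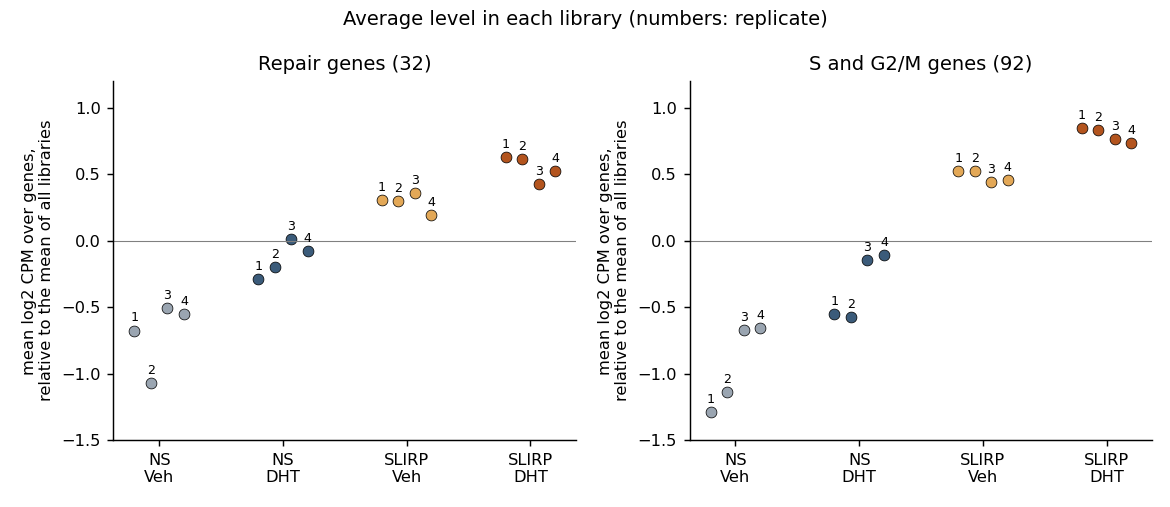
Score of the 32 repair genes (left) and of the 92 S and G2/M genes (right), the mean log2 CPM relative to the mean of all libraries, for each library, labelled with its replicate number. Both scores step up from NS-Veh to SLIRP-1nM DHT, and in neither score does a group overlap another.

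The rise was therefore also measured within the replicate numbers. In replicates 1 and 2, 15 of 28 tested repair genes were higher and 1 was lower with SLIRP siRNA, with a median log2 fold change of 1.12, where 1099 of all 9410 genes were higher and 956 lower. In replicates 3 and 4, 14 of 30 were higher and 1 was lower, with a median of 0.81, where 1161 of all 10353 genes were higher and 966 lower. BRCA1 was at 1.83 and 1.40, FANCI at 1.77 and 1.36, and NBN at -0.89 and -0.57. The study describes a pair of experiments with 2 biological replicates each, but the labels do not say which numbers belong to which.

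A further 64 genes of the same pathways, also listed with earlier results of these data known, were then counted. Of the 57 that were tested, 27 were higher and 2 were lower with SLIRP siRNA, with a median log2 fold change of 0.37, against 17.8% higher and 17.4% lower among all tested genes. The 3 largest rises of that list, among genes with a mean of at least 20 counts, were in CLSPN, UBE2T and POLQ. CLSPN encodes claspin, which couples ATR to CHEK1, and rose by 1.95 ± 0.208 SE (FDR = 4.68e-09), from 4.64 to 30.5 CPM over NS libraries to 47.2 to 118.7 CPM over SLIRP siRNA libraries. UBE2T, the ubiquitin-conjugating enzyme that serves FANCL, rose by 1.77 ± 0.181 SE (FDR = 2.24e-09). POLQ, the polymerase of another, error-prone way of joining ends, rose by 1.33 ± 0.129 SE (FDR = 8.65e-10). The 2 genes that fell were C17orf70, now FAAP100, a part of the Fanconi core complex, by 0.50 on the log2 scale (FDR = 8.84e-04), and MTMR15, now FAN1, a nuclease that binds ubiquitinated FANCD2, by 0.39 (FDR = 1.0e-03). In vehicle 21 of 60 tested genes of the list were higher, and under DHT 23 of 60, with 0 lower in both, against 11.8% and 12.8% of all genes. DHT raised 2 of 57 in NS cells and 1 of 60 in SLIRP knockdown cells, against 0.849% and 0.637% of all genes.

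Non-homologous end joining, which ligates broken ends without a template at any phase of the cell cycle, was counted for comparison. Of 13 genes, 11 were tested, 3 were higher and 0 were lower with SLIRP siRNA, with a median log2 fold change of -0.22. The 27.3% that were higher lay near the 17.8% of all tested genes, so the count is no result about these genes as a list. The genes that rose were XRCC5 and XRCC6, which form the Ku ring that caps a broken end, and PRKDC, the kinase that Ku recruits. XRCC5 rose by 0.39 ± 0.0635 SE (FDR = 8.62e-06), from 364 to 512 CPM over NS libraries to 547 to 618 CPM over SLIRP siRNA libraries. XRCC6 rose by 0.28 ± 0.0618 SE (FDR = 3.64e-04) and PRKDC by 0.39 ± 0.07 SE (FDR = 3.22e-05). The counts of the 3 lists are given side by side, and the difference between them was not tested.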

How the data were processed

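The authors transfected LNCaP cells, sequenced their RNA as single short reads on a HiSeq instrument and deposited 2 tables of whole-number values for 16 libraries. The first holds estimated counts per gene, for which the submitters' processing notes name CASAVA, RSEM and hg19, and every main result was computed from it. The deposited normalized table holds a score, each count divided by the library's upper quartile, multiplied and rounded, and it was used for the limma alternative alone. The aligner, annotation and strand setting are not given in the sources used here. Of 20531 entries, 29 had no symbol (0.0305% to 0.042% of counts) and were left out.

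Differential expression was tested with edgeR 4.0.16 in R 4.3.3 (TMM scaling, filterByExpr, quasi-likelihood test) and P values were adjusted by Benjamini-Hochberg across every gene tested, at an FDR threshold of 0.01. SLIRP siRNA against NS pooled vehicle and DHT libraries without a covariate, after the study's own design, and DHT in NS cells used the 8 NS libraries. The other comparisons were contrasts of a model of 4 groups over all libraries. Each SE was worked out from the test, as the absolute log2 fold change divided by the square root of its F value. CPM used TMM library sizes, and log2 CPM a prior count of 2. The scripts were tested on simulated data first. Replicates were described by the study as biological, and counts of replicates differed by more than sampling noise (chi-square per degree of freedom 1.21 to 2.37).

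The 32 genes, the pathway and end joining lists and the promoter words were chosen with earlier results of these data known. Values in every library are given for the 8 called genes with the largest log2 fold change and a mean of at least 20 counts, for genes called lower and for genes called with DHT. The 3 largest rises and the falls were named from the pathway list, 1 further gene of which is not reported here, and called genes from the end joining list. FANCD2, BARD1 and the partners of NBN were described outside this rule. Gene positions are from GENCODE on hg19, lengths from canonical transcripts, and promoters from RefSeq on GRCh38.p14. Alternatives used DESeq2 1.42.0, limma 3.58.1, other filters, thinned counts and left-out libraries. The cell cycle list came from Seurat 5.3.0, and figures from matplotlib 3.10.9.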

Additional observations from a re-analysis of the deposited data

Results flagged for a closer look

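Among the 128 sets of 4 libraries formed by the 32 repair genes and the 4 groups, 6 held a library whose gap to its nearest neighbour was too wide a part of the group's range by Dixon's test at the 95% level, where chance alone gives about 1 in 20. All 6 rest on few counts. BRIP1 was at 4.64 CPM (2 counts) in replicate 2 of NS-Veh, with the others at 11.2 to 12.1 CPM. BLM was at 5.25 CPM (5 counts) in replicate 1 of NS-1nM DHT, against 10.03 to 10.97 CPM. FANCC was at 9.28 CPM (4 counts) in replicate 2 of NS-Veh, against 19.8 to 20.9 CPM, and FANCG at 18.9 CPM (14 counts) in replicate 3 of SLIRP-Veh, against 25.1 to 26.3 CPM. CHEK2 stood apart in 2 groups, at 7.996 CPM (4 counts) in replicate 1 of NS-Veh against 11.3 to 11.9 CPM, and at 32.3 CPM (24 counts) in replicate 3 of SLIRP-Veh against 21.3 to 21.9 CPM. The 3 flagged NS-Veh values came from the 2 libraries of lowest depth.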

How the results depend on the processing

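In SLIRP siRNA against NS, the number of repair genes called was 4 of 9 tested with at least 10 counts in every library and 8 of 23 after thinning to the lowest depth, with medians of 0.073 and 0.65. Over all genes 1408 were higher and 1383 lower of 6931 with that filter, and 814 and 695 of 7973 after thinning, so that 4 of 9 lay near the share of all genes. The former filter removes genes with low NS levels. Over the fits that left out 1 library, 18 to 20 were called, with a median of 0.79 to 1.07. Over all genes 1701 to 1848 were higher and 1552 to 1740 lower in those fits. Within replicates 1 and 2 the median was 1.12. In vehicle 3 of 9 genes were called with the stricter filter (median 0.11), where 978 of all 6931 genes were higher and 911 lower. After thinning 7 of 28 were called, with 412 higher and 324 lower of all 9016. Within replicates 1 and 2, 13 of 31 were called (median 1.34), with 720 higher and 579 lower of all 10076. The 3 of 9 lay near the share of all genes. Under DHT 3 of 9 were called with the stricter filter (median 0.11), near the share of all genes. Of all 6931 genes, 1070 were higher and 1022 lower with that filter. After thinning 7 of 28 were called, with 399 higher and 344 lower of all 9016. The median under DHT was 1.13 within replicates 1 and 2, 0.45 within replicates 3 and 4, and 0.59 to 0.79 over the left-out libraries. In NS cells with DHT, 4 genes were called without a filter and 4 with a replicate block, 5 at an FDR of 0.05, 2 within replicates 3 and 4, and 0 with the stricter filter, limma at pseudocounts of 1 and 0.1, thinning, replicates 1 and 2, or without the 2 libraries of lowest depth (chosen after seeing the data). In SLIRP knockdown cells with DHT, 2 of 32 were called at an FDR of 0.05, with 157 higher and 153 lower of all 10677. The pathway list counted 13 of 29 called with the stricter filter (11 higher, 2 lower) and 15 of 46 after thinning (14 higher, 1 lower). Within replicates 3 and 4 it counted 15 of 59, all higher, where 1161 of all 10353 genes were higher and 966 lower. The end joining list counted 5 of 11 at an FDR of 0.05. That lay near the share of all 10160 genes, of which 2359 were higher and 2385 lower. The cause of these changes was not tested beyond the smaller number of genes or libraries. Of the genes not called, 4 changed sign: FANCF to -0.0030 with the replicate block, -0.027 with limma, -0.055 after thinning, -0.025 within replicates 1 and 2 and -0.039 to 0.077 over the left-out libraries; XRCC3 to -0.12 and MRE11A to -0.028 after thinning; and ATM to 0.068 within replicates 3 and 4. Nothing in the labels ties same-numbered libraries together, and the correlations of their deviations, from 0.00025 to 0.202 over 6961 genes, were not above 0.1 in every pair of any comparison, though 3 of the 4 pairs of NS-Veh and NS-1nM DHT were (0.159, 0.137 and 0.202). That number was also fitted as a replicate block. In SLIRP siRNA against NS the block was the number within each treatment, which takes out the response to DHT as well. With it, 22 repair genes were called in SLIRP siRNA against NS (21 higher, 1 lower, median 0.98) and 32 of the pathway list. Of all 10160 genes, 2006 were higher and 1948 lower. With the number alone as the block, 19 repair genes were called in vehicle and 16 under DHT. Of all 10677 genes, 1307 were higher and 1143 lower in vehicle, and 1440 and 1334 under DHT. DESeq2 called 20, 19 and 16 repair genes in those 3 comparisons. Over all genes it called 1825 higher and 1658 lower of 10160 in the first. In vehicle it called 1074 and 871 of all 10677, and under DHT 1262 and 967.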

Other observations

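Levels per kilobase of transcript were compared within each library for further partners. The ratio of BRIP1 to BRCA1 overlapped between all 4 groups, from 0.29 to 0.50 in NS-Veh and from 0.27 to 0.36 in SLIRP-1nM DHT. The ratio of PALB2 to BRCA2 ran from 2.56 to 3.48 in NS-Veh, from 1.58 to 3.20 in NS-1nM DHT, from 1.32 to 2.28 in SLIRP-Veh and from 1.01 to 1.42 in SLIRP-1nM DHT, so that the 4 SLIRP-1nM DHT libraries lay below all 8 NS libraries. These ratios were chosen after their genes' values were seen, and no test was made of them.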
